A study of Rattus norvegicus with 16 samples.

Results

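The rat liver genes described here are 5 genes that carry, activate and sense thyroid hormone: Serpina7, Ttr, Dio1, Thra and Thrb. They are 5 of the 13439 genes that the array's annotation names through a probe set with a single symbol. Where a gene has several probe sets, the one with the highest mean over the 16 arrays stands for it, and every further probe set of the 5 genes is reported as well. The group was chosen from results of these same data, in which Serpina7 had stood among the largest differences between the diets. The diet differences of Serpina7, and the difference between them, are therefore given as a description, with no test. The other 4 genes were added for their place in the pathway.

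RNA from 16 livers of male rats of the inbred F344 strain was measured on RG-230 PM arrays from Affymetrix, 1 for each rat, in 4 groups of 4. The rats were labelled as 4 weeks old and had been kept on their diets for 3 weeks. The control, normal diet group ate basal rodent chow, drank control dehydrogenized water and breathed air, and the hydrogen, normal diet group ate the same chow with hydrogen-rich water (0.7 mM dissolved hydrogen) in air that contained 2% hydrogen. The control, CDAA group and the hydrogen, CDAA group had the same water and air, respectively, and ate the CDAA diet, which lacks choline and supplies L-amino acids in place of protein, and makes the rat liver fatty. The labels name no genetic change in any group, and the CDAA diet differs from chow in its whole composition as well as in choline. The comparisons ask what the diet changed with and without hydrogen, and what hydrogen changed on each diet. Replicates are separate samples by their labels.

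Thyroid hormone circulates mostly as thyroxine (T4), nearly all of it bound to plasma proteins that the liver secretes. Serpina7 encodes thyroxine-binding globulin, a serpin that has lost protease inhibition and holds T4 with high affinity. In rats this globulin is abundant in suckling pups and low in adults, and thyroid hormone lowers it. Ttr encodes transthyretin, another carrier, which also transports retinol-binding protein. Inside the hepatocyte the selenoenzyme encoded by Dio1 removes an outer-ring iodine from T4 to give the active hormone triiodothyronine (T3). T3 binds nuclear receptors encoded by Thra and Thrb, which sit on DNA with retinoid X receptors. The beta receptor is the main one of liver, and many of its targets govern lipid and carbohydrate metabolism.

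The 250 bases before an annotated start of Serpina7 and of Thrb are shown because these genes differed between the diets in opposite directions. They come from RefSeq (build GRCr8), whose promoter table held all 5 genes in 6 windows. The Serpina7 stretch lies at chrX:107457682-107457931 and the Thrb stretch at chr15:10461447-10461696, each on the minus strand and printed 5′ to 3′. The annotated spans of the 2 genes reach to 107510958 and 10465231, so each stretch precedes a start inside its gene. No letter is in capitals because no searched motif was found.
Serpina7: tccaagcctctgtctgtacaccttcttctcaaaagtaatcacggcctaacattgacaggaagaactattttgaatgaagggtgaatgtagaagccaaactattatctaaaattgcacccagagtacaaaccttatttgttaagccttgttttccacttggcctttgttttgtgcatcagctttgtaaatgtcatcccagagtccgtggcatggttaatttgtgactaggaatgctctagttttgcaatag
Thrb: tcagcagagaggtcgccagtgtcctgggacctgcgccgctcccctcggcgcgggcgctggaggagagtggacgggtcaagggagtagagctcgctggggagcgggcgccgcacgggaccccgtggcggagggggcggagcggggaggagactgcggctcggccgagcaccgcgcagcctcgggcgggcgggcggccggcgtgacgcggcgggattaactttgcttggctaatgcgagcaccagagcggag
Neither strand of the 300-base windows of the 5 genes (250 before and 50 after the start) held the nuclear receptor motif AGGTCA, a pair of AGGTCA copies separated by any 4 bases, the HNF1 motif (GTTAAT followed by ATTAAC after 1 free base) or the FOXA motif TGTTTAC. The pair contains the single motif. Of all 33469 windows in the table, 16.2% held the single receptor motif, 0.00598% the pair, 0.00299% the HNF1 motif and 3.78% the FOXA motif. G and C made up 39.6% of the Serpina7 stretch and 74.0% of the Thrb stretch, against a median of 51.2% over all windows. The corresponding shares were 40.4% for Ttr, 55.2% for Dio1, and 79.6% and 44.8% for the 2 starts of Thra.

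The deposited values were RMA-normalised log2 signals, with array medians of 4.33 to 4.37 and a highest value of 13.73. Of 31139 probe sets, 22765 exceeded the 30th percentile of all values (3.67) on at least 4 arrays and were tested with limma, and a call below means a Benjamini-Hochberg adjusted p under 0.05 over all of them. On the first principal component (66.0% of the variance) the CDAA arrays lay at 23.9 to 40.1 and 7 normal-diet arrays at -35.1 to -32.0. Replicate 4 of the control, normal diet group lay between the diets at -13.4, and results that rest on this array are given with and without it.

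Serpina7 had the widest range of the 5 genes, and its signal separated the diets. In the control, normal diet group its log2 signals were 6.61, 6.20, 4.80 and 8.44 (mean 6.51 ± 1.50, SD, n = 4). In the hydrogen, normal diet group they were 5.54, 5.02, 4.66 and 5.10 (5.08 ± 0.36, SD, n = 4). In the control, CDAA group they were 10.14, 10.52, 10.12 and 9.77 (10.14 ± 0.31, SD, n = 4), and in the hydrogen, CDAA group 10.29, 10.31, 9.93 and 10.44 (10.24 ± 0.22, SD, n = 4). Every CDAA array lay above every normal-diet array, the nearest pair being 9.77 and 8.44. The order of the means was hydrogen, normal diet, then control, normal diet, then control, CDAA, then hydrogen, CDAA. Both CDAA groups overlapped each other, and so did both normal-diet groups.

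**Figure D1:**
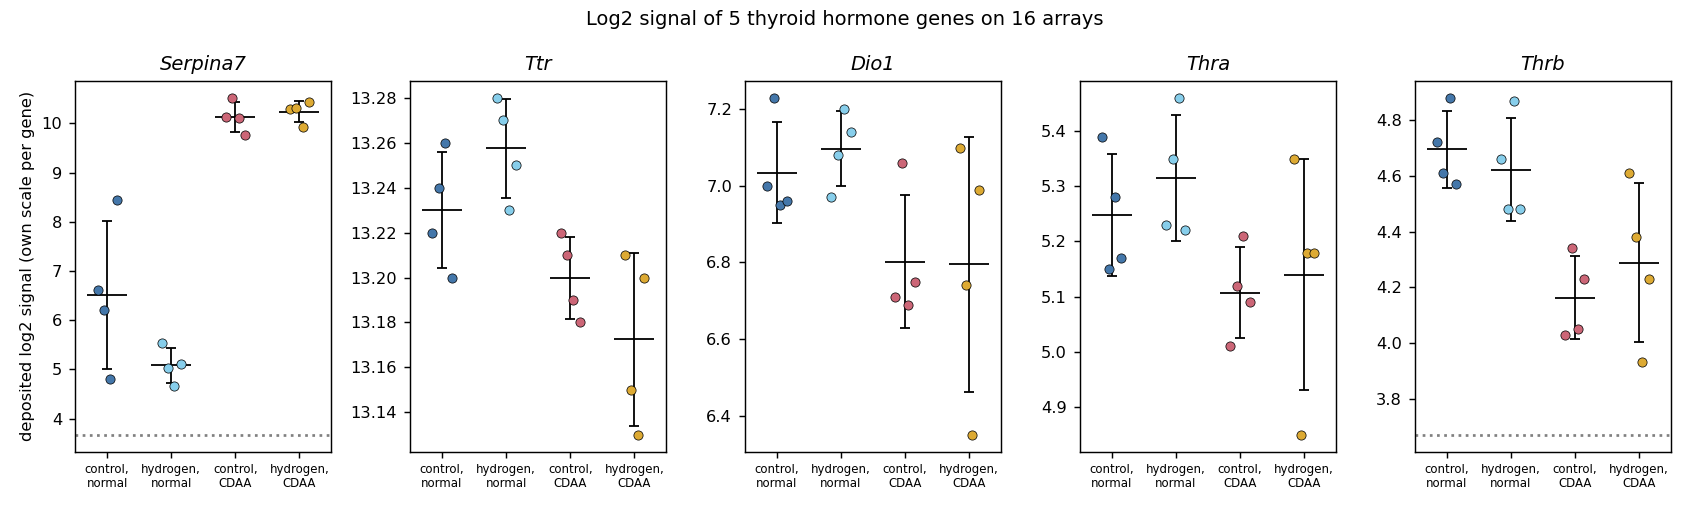
Deposited log2 signal (vertical axis, a separate scale for each gene) of the 5 genes on each array, by group (horizontal axis). Points are arrays, the horizontal stroke is the group mean and bars are 1 SD (n = 4); the dotted line at 3.67 is the level a probe set had to exceed on at least 4 arrays. All 8 CDAA arrays of Serpina7 lie at 9.77 or above and all 8 normal-diet arrays at 8.44 or below, while the Ttr panel spans only 13.13 to 13.28.

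In control rats Serpina7 was 12.3-fold higher on the CDAA diet (log2 difference 3.63, n = 4 per group), the third highest difference of the 22765 probe sets. Under hydrogen it was 35.8-fold higher (log2 difference 5.16), the second highest. The gene was chosen for such differences, so their size and rank are no test. Diet groups that did not overlap, with CDAA higher, were found for 18.8% of probe sets in control rats and 22.7% under hydrogen. The spread of Serpina7 in the control, normal diet group (SD 1.50) was the eighth largest of all tested probe sets, whose median SD was 0.10. Without replicate 4, that group's mean was 5.87 ± 0.95 (SD, n = 3) and the difference in control rats became 19.3-fold (log2 4.27). Leaving out each of the 16 arrays in turn gave 8.31-fold to 19.3-fold in control rats, the lowest without replicate 3 of the control, normal diet group, and 32.5-fold to 39.8-fold under hydrogen.

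Hydrogen did not give a called difference in Serpina7 on either diet. On normal chow the mean was 2.70-fold lower with hydrogen (log2 difference -1.43, 95% interval -2.47 to -0.40, adjusted p = 0.521, limma), the second lowest difference of all probe sets, although the groups overlapped between 4.80 and 5.54. Without replicate 4 of the control group, the signal was 1.73-fold lower (log2 -0.79 ± 0.32, SE, adjusted p = 0.668, limma) and ranked 18 from the lowest. Without replicate 3 it was 4.01-fold lower (log2 SE 0.38, adjusted p = 0.0829, limma). On the CDAA diet the difference was 0.11 (95% interval -0.93 to 1.14, adjusted p = 0.961, limma). The fit shares 1 spread among the 4 groups, so the wide control, normal diet group entered this interval too. With only the 2 groups compared in the fit, the SE was 0.16 in place of 0.49 (adjusted p = 0.903, limma). On chow the SE was then 0.58 (adjusted p = 0.399, limma). The hydrogen effects on the 2 diets differed by 1.54 (the interaction). This value is also the difference between the 2 diet differences of Serpina7, so it is given with no test. It was 0.90 without replicate 4 of the control, normal diet group and 2.11 without its replicate 3. The diet comparison in control rats and the hydrogen comparison on chow share the control, normal diet arrays.

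Ttr stayed within a narrow band on all 16 arrays. Its log2 signals were 13.22, 13.24, 13.26 and 13.20 in the control, normal diet group (13.23 ± 0.03, SD, n = 4) and 13.28, 13.27, 13.23 and 13.25 in the hydrogen, normal diet group (13.26 ± 0.02, SD, n = 4). They were 13.22, 13.21, 13.19 and 13.18 in the control, CDAA group (13.20 ± 0.02, SD, n = 4) and 13.21, 13.15, 13.13 and 13.20 in the hydrogen, CDAA group (13.17 ± 0.04, SD, n = 4). The 4 groups followed one another from hydrogen, normal diet down to hydrogen, CDAA, and each overlapped its neighbour in that order. The diet difference was -0.03 in control rats (95% interval -0.12 to 0.06, adjusted p = 0.62, limma) and -0.09 under hydrogen (95% interval -0.18 to 0.01, adjusted p = 0.116, limma). Under hydrogen every CDAA array lay below every normal-diet array, as for 16.4% of probe sets. Hydrogen gave 0.03 on normal chow and -0.03 on the CDAA diet, with adjusted p-values of 0.936 and 0.858 (limma).

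The Ttr signal lay near the top of the scale, where the array maxima were 13.70 to 13.73. Among the 22 probe sets with means over 13, the largest absolute diet difference was 0.37 in control rats and 0.45 under hydrogen, and the medians were 0.07 and 0.08. How far the signal of Ttr was compressed was not tested. Albumin, the low-affinity carrier of thyroid hormone, lay at 13.70 to 13.73 on all arrays, and its diet difference was 0.01 in both comparisons. A further probe set listed jointly for Mt1 and Ttr was not used, because it names more than 1 gene.

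Dio1 had slightly lower mean signals on the CDAA diet, and no diet difference was called. Its log2 signals were 7.00, 7.23, 6.95 and 6.96 in the control, normal diet group (7.04 ± 0.13, SD, n = 4) and 6.97, 7.08, 7.20 and 7.14 in the hydrogen, normal diet group (7.10 ± 0.10, SD, n = 4). They were 6.71, 7.06, 6.69 and 6.75 in the control, CDAA group (6.80 ± 0.17, SD, n = 4) and 7.10, 6.74, 6.35 and 6.99 in the hydrogen, CDAA group (6.80 ± 0.33, SD, n = 4). Single CDAA arrays (7.06, 7.10 and 6.99) reached the normal-diet range, so the diet groups overlapped in both comparisons. The diet difference was -0.23 in control rats (95% interval -0.51 to 0.05, adjusted p = 0.186, limma) and -0.30 under hydrogen (95% interval -0.58 to -0.02, adjusted p = 0.0715, limma). Under hydrogen it passed the threshold at -0.46 when the arrays were quantile-normalised again (adjusted p = 0.0105, limma), at -0.40 without replicate 1 and at -0.37 without replicate 4 of the hydrogen, CDAA group. Hydrogen gave 0.06 on normal chow (adjusted p = 0.956, limma) and -0.01 on the CDAA diet (95% interval -0.29 to 0.27, adjusted p = 0.992, limma).

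Thra, which encodes the alpha receptor, had no called difference in any comparison. Its log2 signals were 5.39, 5.15, 5.28 and 5.17 in the control, normal diet group (5.25 ± 0.11, SD, n = 4) and 5.23, 5.35, 5.46 and 5.22 in the hydrogen, normal diet group (5.32 ± 0.11, SD, n = 4). They were 5.01, 5.12, 5.21 and 5.09 in the control, CDAA group (5.11 ± 0.08, SD, n = 4) and 5.35, 4.85, 5.18 and 5.18 in the hydrogen, CDAA group (5.14 ± 0.21, SD, n = 4). The groups overlapped in each of the 4 comparisons made, although the control, CDAA group (up to 5.21) lay below the hydrogen, normal diet group (from 5.22). The diet differences were -0.14 (adjusted p = 0.263, limma) and -0.18 (adjusted p = 0.136, limma), in control rats and under hydrogen respectively.

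A second Thra probe set had group means of 4.88, 4.97, 4.80 and 4.75, in the same order of groups, and diet differences of -0.08 and -0.22 (adjusted p = 0.54 and 0.0571, limma). The mean of both sets differed by -0.20 under hydrogen (adjusted p = 0.017, limma), as did the first set when the arrays were quantile-normalised again (-0.27, adjusted p = 0.0216, limma) or replicate 1 of the hydrogen, CDAA group was left out (-0.25, adjusted p = 0.0433, limma). The third set stayed at 2.64 to 2.80, under the filter on all arrays, and was not tested. In the RefSeq annotation Thra overlaps Nr1d1, which lies on the opposite strand and encodes the clock repressor REV-ERB alpha. Nr1d1 had signals of 5.47, 6.96, 6.47 and 6.10 in the control, CDAA group and 7.40, 7.35, 6.90 and 6.76 in the hydrogen, CDAA group, a difference of 0.85 that was not called (95% interval 0.32 to 1.38, adjusted p = 0.202, limma). The hydrogen difference of Thra on that diet was 0.03 (adjusted p = 0.934, limma), and the second set gave -0.05.

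Thrb, which encodes the beta receptor, was lower on the CDAA diet in both comparisons. Its log2 signals were 4.72, 4.61, 4.88 and 4.57 in the control, normal diet group (4.70 ± 0.14, SD, n = 4) and 4.66, 4.48, 4.87 and 4.48 in the hydrogen, normal diet group (4.62 ± 0.19, SD, n = 4). They were 4.03, 4.34, 4.05 and 4.23 in the control, CDAA group (4.16 ± 0.15, SD, n = 4) and 4.61, 4.38, 3.93 and 4.23 in the hydrogen, CDAA group (4.29 ± 0.29, SD, n = 4). In control rats all CDAA arrays lay below all normal-diet arrays, as for 14.5% of probe sets. Under hydrogen 1 CDAA array, at 4.61, lay inside the normal-diet range. The order of the means was control, normal diet, then hydrogen, normal diet, then hydrogen, CDAA, then control, CDAA, and the groups within each diet overlapped.

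Thrb fell by 0.53 on the log2 scale in control rats (95% interval -0.80 to -0.26, 1.45-fold lower, adjusted p = 0.00399, limma). Leaving out each array in turn kept this between -0.59 and -0.47, with adjusted p-values of 0.00133 to 0.0165. Under hydrogen it fell by 0.34 (95% interval -0.61 to -0.06, 1.26-fold lower, adjusted p = 0.0426, limma). That call was lost with no filter, after median centring, with only the 2 groups compared in the fit (adjusted p = 0.0812) and without any of 5 single arrays, the smallest difference being -0.22 without replicate 3 of the hydrogen, CDAA group (adjusted p = 0.154, limma). The interaction was 0.20 (95% interval -0.18 to 0.58, adjusted p = 0.777, limma). The Thrb signals, from 3.93 to 4.88, lay around the array medians of 4.33 to 4.37, so the gene was measured at a low level. How far background entered these signals was not tested. A second Thrb probe set lay at 3.19 to 3.66, under the filter on all arrays, and was not tested. Its means on normal chow and the CDAA diet were 3.38 and 3.355 in control rats, and 3.51 and 3.355 under hydrogen.

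Among the 4 genes other than Serpina7, only Thrb was called for the diet in either comparison. Of all probe sets, 35.3% were called for the diet in control rats and 44.7% under hydrogen, 14.4% and 19.3% as lower on the CDAA diet. A call for the diet was therefore common on these arrays. For hydrogen, 0 of the 5 genes were called on either diet (limma), against 0.00879% of probe sets on normal chow and 0.312% on the CDAA diet. At an unadjusted p under 0.05, 1 of the 5 (Serpina7) passed on normal chow and 0 on the CDAA diet, against 7.49% and 11.5% of probe sets. For the interaction, 0 of the 4 genes other than Serpina7 were called (limma), against 0.00439% of probe sets. At an unadjusted p under 0.05, 0 of these 4 passed for it, against 9.13%.

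**Figure D2:**
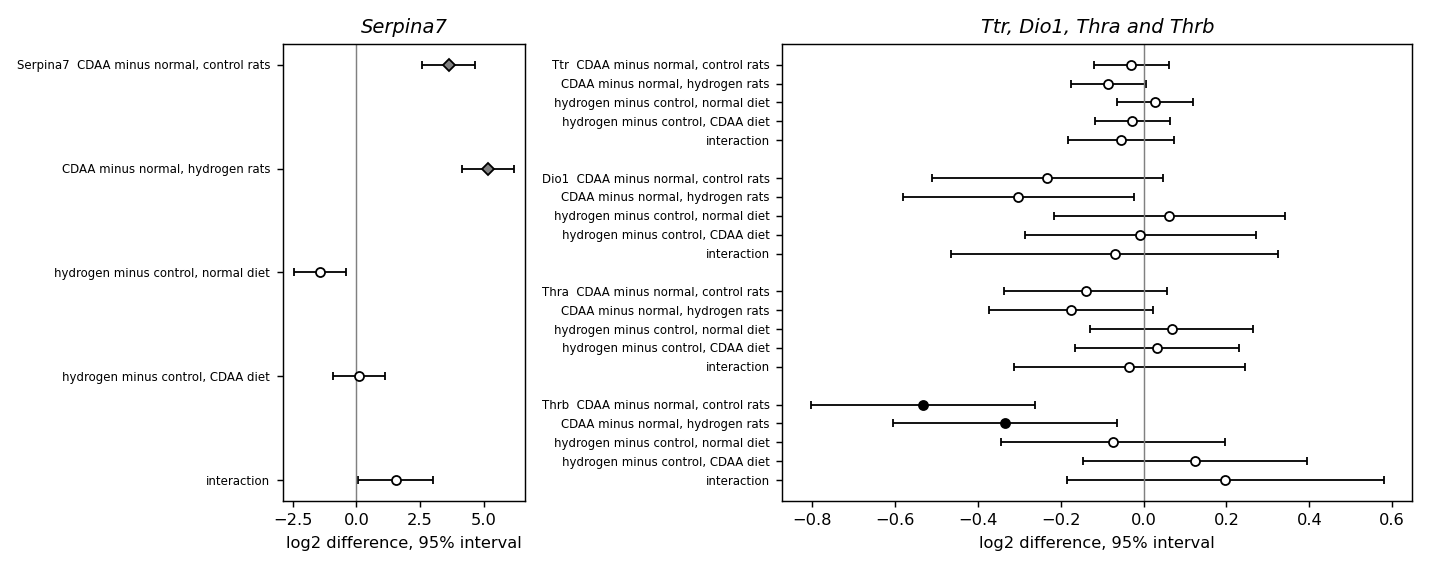
Log2 differences (horizontal axis) of the 5 genes for each comparison, with 95% intervals from the limma fit over all 16 arrays; filled circles passed an adjusted p of 0.05, open circles did not, and grey diamonds are the diet differences of Serpina7, which are given with no test. The interaction of Serpina7, drawn as an open circle, is also given with no test. Serpina7 was chosen for its diet differences, so the intervals drawn for them and for its interaction describe the fit and are no test. The Serpina7 intervals lie on a wider axis than those of the other 4 genes, and only Thrb has filled circles.

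The liver as a whole was sampled, so fewer cells of a type and less RNA per cell cannot be told apart. Over all 11483 genes tested, 27.2% were called higher and 13.2% lower on the CDAA diet in control rats, and 32% and 17.3% under hydrogen. Of 11 hepatocyte markers tested, which include Ttr (not called), 1 was called higher and 3 lower on the CDAA diet in control rats, and 1 and 4 under hydrogen. The summed level of that list, as a mean log2 signal per array, was 11.57 to 11.69 and 11.57 to 11.70 on normal chow, and 11.53 to 11.70 and 11.50 to 11.53 on the CDAA diet, without and with hydrogen. Every hydrogen, CDAA array lay below every normal diet array. Macrophage markers were called higher in 4 and 6 of 7, stellate cell markers in 6 and 8 of 10, bile duct markers in 3 of 6 in both comparisons and endothelial markers in 2 and 3 of 5. The macrophage marker Clec4f went the other way, called lower in control rats (-0.61) and not called under hydrogen (-0.38). The mean signal of the stellate list was 6.39 to 6.95 and 6.49 to 6.55 on normal chow, and 7.04 to 7.36 and 7.06 to 7.33 on the CDAA diet, without and with hydrogen. For macrophage markers the ranges were 7.36 to 8.13 and 7.60 to 7.83 on normal chow, and 8.23 to 8.57 and 8.34 to 8.90 on the CDAA diet. Lymphocyte markers were called higher in 2 and lower in 1 of 5 in each comparison, and 1 was higher in control rats without replicate 4 of the control, normal diet group. Quantile normalization again left 2 macrophage markers higher in control rats. Of the genes that mark thyroid tissue, Tg had group means of 4.20 to 4.32, Slc5a5 of 3.67 to 3.79 and Tshr of 3.71 to 4.00. Tshr was called lower on the CDAA diet (log2 difference -0.20 in both comparisons, adjusted p = 0.0491 in control rats and 0.0385 under hydrogen, limma). The call in control rats was lost without replicate 4 of the control, normal diet group and after median centring, and that under hydrogen after quantile normalization again and median centring. The part of these markers in the diet differences of Serpina7 and Thrb was not tested.

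The membrane carriers that bring thyroid hormone into liver cells were mostly lower on the CDAA diet. Of 8 carriers tested, 6 were called lower and 2 higher in control rats, and the same counts held under hydrogen, with median log2 differences of -0.72 and -0.70. Over all 11483 genes, 13.2% were called lower and 27.2% higher in control rats, and 17.3% and 32% under hydrogen, with medians of 0.04 and 0.05. Slco2b1, an organic anion carrier, had signals of 8.47, 8.36, 8.38 and 8.13 in the control, normal diet group and 6.75, 7.35, 6.93 and 7.29 in the control, CDAA group. It fell by 1.25 ± 0.14 (SE) in control rats and by 1.09 ± 0.14 under hydrogen, and 2 further probe sets gave -0.67 and -0.15 in control rats.

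Slco1a4, a carrier of T4 and T3, fell by 1.03 ± 0.11 (SE) in control rats and by 0.96 ± 0.11 under hydrogen. Slco1a1 fell by 0.73 and 0.82, Slco1b2 by 0.70 and 0.62, and the bile acid carrier Slc10a1 by 0.60 and 0.59. Slc16a10, an aromatic amino acid carrier that also moves T3, fell by 1.10 and 0.77, and its groups overlapped under hydrogen. The amino acid exchangers Slc7a5 and Slc7a8, which also take iodothyronines, rose by 0.47 and 0.33 in control rats and by 0.51 and 0.48 under hydrogen.

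Proteins that bind, sulphate or release thyroid hormone inside the cell moved in both directions. Of 9 tested, 1 was called higher and 3 lower in control rats, against 27.2% and 13.2% of all genes. Under hydrogen 2 were called higher and 4 lower, against 32% and 17.3% of all genes. Without replicate 4 of the control, normal diet group, 2 were called higher in control rats. Crym encodes a cytosolic T3-binding protein. Its signals were 7.61, 7.34, 7.61 and 7.16 in the control, normal diet group against 5.53, 5.58, 5.26 and 5.57 in the control, CDAA group, with no overlap. It fell by 1.94 ± 0.17 (SE), 3.85-fold lower, in control rats and by 1.48 ± 0.17, 2.80-fold lower, under hydrogen.

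Sts, the steroid sulphatase, fell by 1.07 and 1.18, and Sult1c3, a sulphotransferase, by 0.63 and 0.69. Aldh1a1, a retinal dehydrogenase that also binds thyroid hormone in cytosol, rose by 2.21 ± 0.25 and 2.31 ± 0.25 (SE). Its signals in the control, normal diet group were 8.59, 7.94, 7.90 and 9.51, with the highest on replicate 4, and all CDAA arrays lay at 10.40 or above. Gusb, the beta-glucuronidase that can free conjugated hormone, rose by 0.34 under hydrogen and differed by 0.14 in control rats, where it was not called. Sult1e1, the oestrogen sulphotransferase, differed by -1.49 ± 0.87 (SE, not called) in control rats and fell by 2.34 ± 0.87 under hydrogen, with replicate 2 at 8.89 and 6.81 in the CDAA groups against 11.29 to 12.16 on the other CDAA arrays. Sult1a1 (-0.30 and -0.19) and Ugt2b1 (0.32 and 0.08) were not called.

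**Figure D3:**
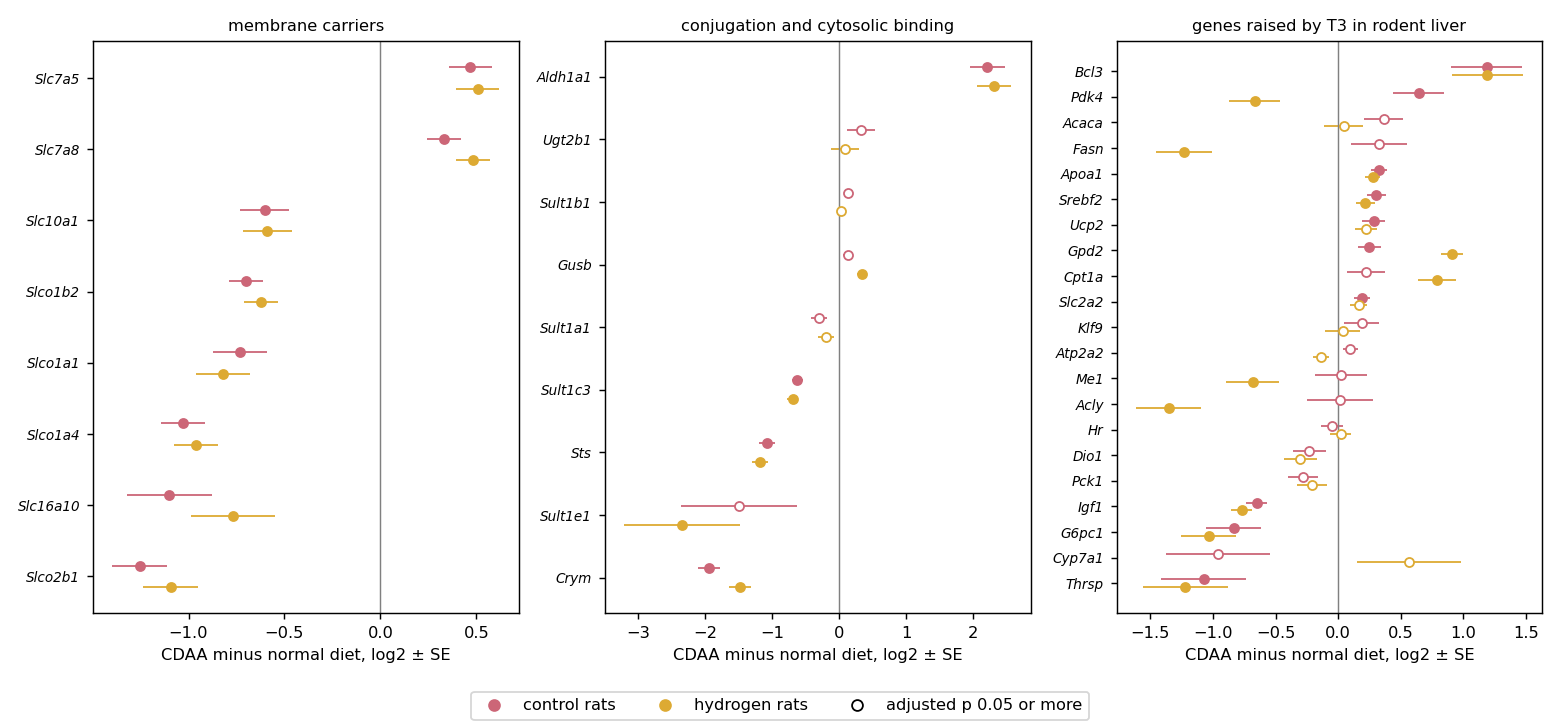
Difference between CDAA and normal diet (horizontal axis, log2 ± SE, n = 4 per group) for each tested gene of 3 lists, in control rats (red) and hydrogen-treated rats (yellow); open circles did not pass an adjusted p of 0.05. In the carrier panel 6 of 8 genes lie below 0 in both comparisons, led by Slco2b1 at -1.25 and -1.09, while the panel of genes raised by T3 holds values on both sides.

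Genes that T3 is known to raise in rodent liver, a list that includes Dio1 (not called), moved in both directions. Under hydrogen 5 of 21 tested were called higher and 7 lower, against 32% and 17.3% of all genes, with a median of 0.02. In control rats 7 were called higher and 3 lower, against 27.2% and 13.2% of all genes, with a median of 0.19. The 7 higher became 4 when the arrays were quantile-normalised again. Thrsp (Spot 14), a lipogenic gene named for its response to thyroid hormone, had signals of 10.39, 10.65, 9.90 and 10.34 in the control, normal diet group and 8.23, 10.28, 9.24 and 9.23 in the control, CDAA group. It fell by 1.08 ± 0.34 (SE) in control rats and by 1.22 ± 0.34 under hydrogen. G6pc1, the catalytic subunit of glucose-6-phosphatase, fell by 0.84 and 1.03. Gpd2, the mitochondrial glycerol-3-phosphate dehydrogenase used as a classic sign of thyroid hormone action, rose by 0.25 and 0.91.

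Fasn, the fatty acid synthase, differed by 0.33 in control rats (not called) and fell by 1.23 under hydrogen. On the CDAA diet its signals were 9.55, 10.40, 10.17 and 10.23 in the control group and 9.08, 8.53, 8.70 and 9.18 with hydrogen. This was the only call among the 94 tested genes of the 8 pathway lists for either hydrogen comparison (-1.22 ± 0.22, SE, adjusted p = 0.0302, limma), against 0.374% of all genes on the CDAA diet and 0.00871% on normal chow. At an unadjusted p under 0.05, 12 of the 94 passed on the CDAA diet and 5 on normal chow, against 11.5% and 7.49% of probe sets. Among the 89 genes of these lists other than the 5, the interaction called 0 (limma), with 10 at an unadjusted p under 0.05 against 9.13% of probe sets. The interaction of Fasn was -1.56 (adjusted p = 0.18, limma). Acly, the ATP citrate lyase, differed by 0.02 in control rats and fell by 1.36 under hydrogen. Klf9, a transcription factor induced directly by T3, differed by 0.19 and 0.04, and Cyp7a1, the rate-limiting enzyme of bile acid synthesis, by -0.96 and 0.56, and neither was called. Bcl3 rose by 1.19 in control rats, where a further probe set was also called higher (0.26). Under hydrogen it gave 1.19 as well, but another set was called lower (-0.24), so its direction there is uncertain.

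Of the 5 receptor and partner genes, Thrb and Rxrg were called lower in control rats, and Thrb and Rxra under hydrogen, with medians of -0.14 and -0.18. Over all genes, 13.2% were called lower in control rats and 17.3% under hydrogen. Rxrg fell by 0.38 ± 0.14 (SE) in control rats, where its groups overlapped, and a further probe set gave -0.12. Rxra fell by 0.24 under hydrogen, and Rxrb differed by 0.12 and 0.18. Of 11 cofactor genes, 3 were called higher and 1 lower in control rats, against 27.2% and 13.2% of all genes. Under hydrogen 4 were called higher and 1 lower, against 32% and 17.3% of all genes. The coactivator Ncoa3 rose by 0.40 and 0.70 on its highest probe set. Its 2 further sets gave 0.11 and 0.08 in control rats, neither called, and 0.31 (called) and -0.11 (not called) under hydrogen. The histone deacetylase Hdac3, which works with the corepressors, rose by 0.26 under hydrogen. The corepressor Ncor1 fell by 0.52 and 0.77 on its highest probe set, while its 3 further sets gave -0.17 to 0.11 and were not called. For Tbl1x and Tbl1xr1 under hydrogen, and for Med1 in control rats, another probe set was called the other way, and the direction there is uncertain.

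The other deiodination genes lay close to their normal-diet levels. Dio3, which inactivates T4 and T3, fell by 0.25 ± 0.07 (SE) under hydrogen and differed by -0.07 in control rats, where it was not called. Its diet groups overlapped under hydrogen, and its signals, from 4.13 to 4.71, lay around the array medians. Iyd, which recovers iodide, differed by -0.04 and -0.06. Dio2, the other activating deiodinase, did not pass the filter. Of 16 genes for selenoprotein synthesis and other liver selenoproteins, 3 were called higher and 3 lower in control rats, and 4 and 4 under hydrogen. Over all genes, 27.2% were called higher and 13.2% lower in control rats, and 32% and 17.3% under hydrogen. Secisbp2, which recruits the selenocysteine machinery that Dio1 also needs, rose by 0.45 and 0.50. Scly, which recycles selenium from selenocysteine, fell by 0.39 and 0.60. Selenos, an endoplasmic reticulum selenoprotein, rose by 0.86 and 0.69.

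Among other hormone, vitamin, metal and haem carriers that the liver secretes, and further serpins, more were called lower than higher. Of 19 tested, 2 were called higher and 7 lower in control rats, against 27.2% and 13.2% of all genes, with a median of -0.04. Under hydrogen 4 were called higher and 7 lower, against 32% and 17.3% of all genes, with a median of -0.02. The 4 became 2 without replicate 4 of the control, normal diet group. Serpina6, a related serpin that encodes the corticosteroid-binding globulin, had signals of 11.87, 11.88, 11.84 and 11.68 in the control, normal diet group and 10.87, 10.71, 10.73 and 11.01 in the control, CDAA group. It fell by 0.99 ± 0.14 and 1.34 ± 0.14 (SE). Igfals, which holds insulin-like growth factors in plasma, fell by 1.66 and 1.74, and Serpinf2 by 0.48 and 0.48. The largest called rise in the list was that of Serpina10, the inhibitor of coagulation factor X that works with protein Z, at 0.40 and 0.45. Rbp4, the retinol carrier that travels with transthyretin, differed by 0.06 and -0.02, and Serpina1 by -0.06 and -0.02.

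The genes whose pattern over the 16 arrays was most like that of each member are given as a description, since all share the same arrays and the same diet groups. For Serpina7 these were A2m (Pearson r = 0.98), Eif1ax (0.97) and Zfp202 (0.97), and 0.79, 0.73 and 0.66 after each group's mean was subtracted. A2m encodes alpha-2-macroglobulin, a plasma protease inhibitor. Its signals were 5.56, 5.68, 5.35 and 6.66 in the control, normal diet group, 5.55, 4.89, 4.93 and 5.02 in the hydrogen, normal diet group, 8.09, 8.10, 8.30 and 7.42 in the control, CDAA group and 7.65, 7.87, 7.82 and 8.33 in the hydrogen, CDAA group. Like Serpina7, A2m was highest on replicate 4 of the control, normal diet group among all normal-diet arrays, and lowest on replicate 4 among the control, CDAA arrays. Eif1ax (8.00) and Zfp202 (4.84) were also highest on that normal-diet array.

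**Figure D4:**
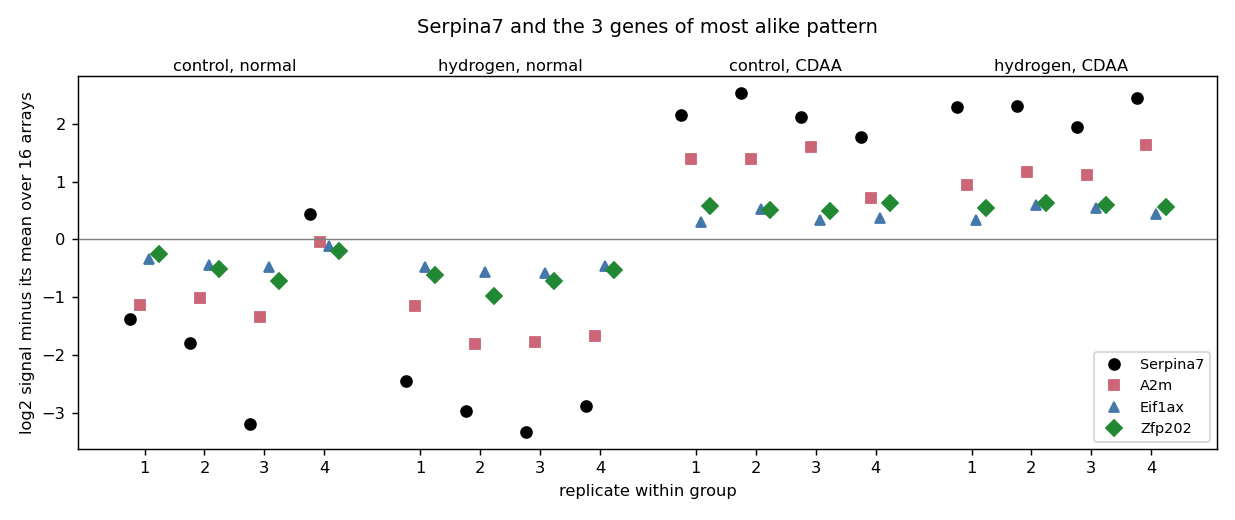
Log2 signal of Serpina7, A2m, Eif1ax and Zfp202 on each array, each minus its own mean over the 16 arrays (vertical axis), by group and replicate (horizontal axis). Serpina7 runs from 4.66 to 10.52 on the log2 scale and the other genes span less. Replicate 4 of the control, normal diet group lies nearest the CDAA arrays of all normal-diet arrays for every gene shown. It is at 8.44 for Serpina7, 6.66 for A2m, 8.00 for Eif1ax and 4.84 for Zfp202.

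For Thrb the most alike gene was Asgr1, the hepatocyte asialoglycoprotein receptor (r = 0.95, and 0.92 after group means), followed by Wdtc1 (0.93) and Dstl1 (0.93). Asgr1 fell by 0.31 in control rats and by 0.24 under hydrogen. For Dio1 these were Pex5, the import receptor of peroxisomes (0.91, and 0.87 after group means), Mr1 (0.89) and Ppif (0.89). Pex5 differed by -0.21 and -0.20 and was not called. For Ttr they were Albfm1 (0.89), Fabp1, the liver fatty acid carrier (0.88), and Znrf2 (0.88). For Thra they were Kmt2e, Osbpl1a and Usp8, each at 0.84. Among the 5 genes themselves, Dio1 and Thrb had r = 0.75, and 0.62 after group means, and Dio1 and Ttr had 0.71 and 0.53. Serpina7 had r of -0.56 to -0.77 with the other 4, which became -0.24 to 0.07 after group means.

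**Figure D5:**
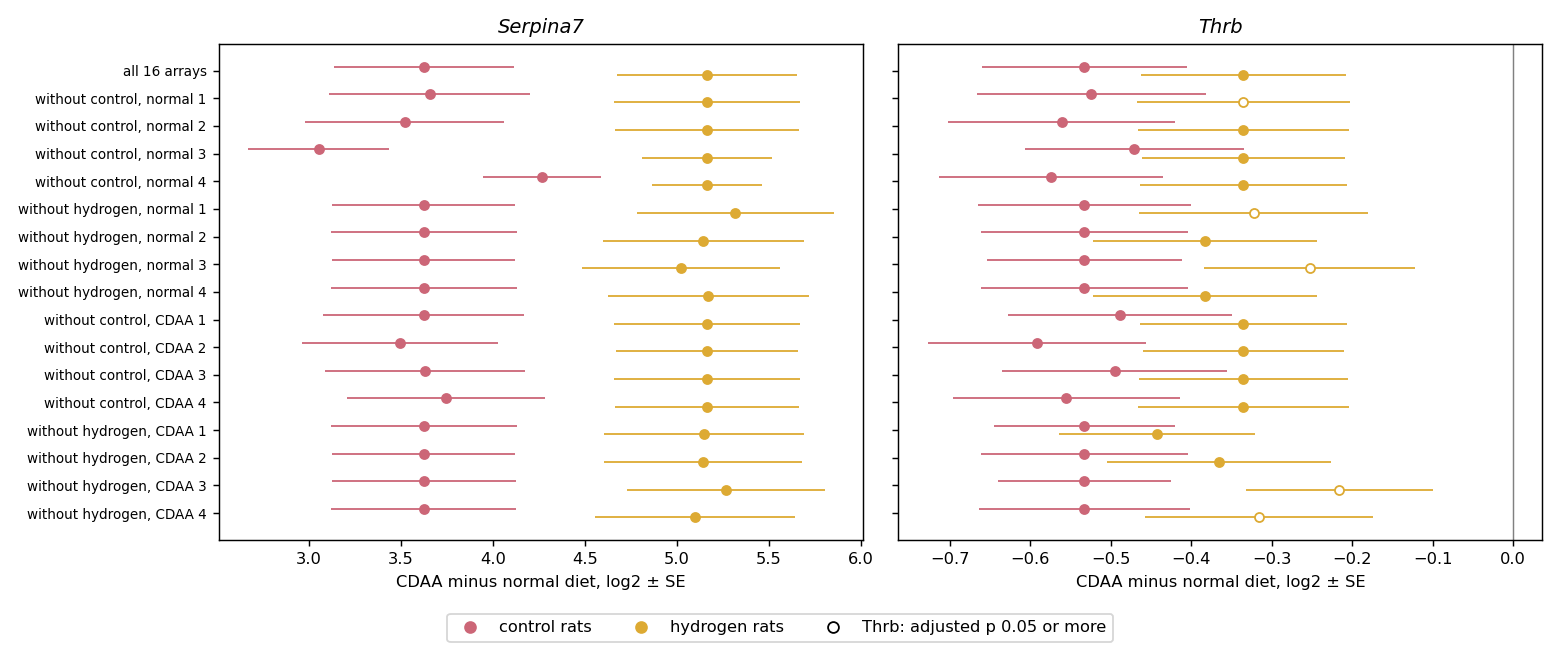
Difference between CDAA and normal diet (horizontal axis, log2 ± SE of the fit) for Serpina7 and Thrb with all 16 arrays and with each array left out in turn (vertical axis), in control rats (red) and hydrogen-treated rats (yellow). Serpina7 in control rats moves from 3.05 to 4.27, and its bars describe the fit and are no test. Open circles mark the 5 arrays whose loss took the hydrogen-group difference of Thrb past an adjusted p of 0.05.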

How the data were processed

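RNA of 16 rat livers was labelled by a 3'IVT method, which primes at the poly(A) end, and hybridised to RG-230 PM arrays, per the labels' protocols. The authors deposited log2 values, 1 per probe set and array, and the tools listed in the submitters' processing notes are RMA and Affymetrix Expression Console. Their versions are not given in the sources used here. RMA equalises the arrays' distributions, so a shift of all transcripts would not show. Strip, scan date and time of day of sampling are not given in the labels, so they could not be checked as batches.

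From these values, 97 control probe sets were left out and 22765 of 31139 probe sets passed the filter (over 3.67, the 30th percentile, on at least 4 arrays). Symbols came from the platform annotation (19069 probe sets with 1 symbol, 572 with several, 11498 not listed, controls included), of which 18989 matched a GRCr8 RefSeq gene. The 4 group means were estimated together from all 16 arrays with limma 3.58.1 (R 4.3.3), using eBayes and Benjamini-Hochberg adjustment over all tested probe sets in each comparison. A fold is 2 raised to the log2 difference, and errors marked SE come from the fit. The script was tested on simulated data. No 2 arrays held identical values, and precision is limited by the number of arrays. Python 3.11.15 with matplotlib 3.10.9 drew the figures.

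The 5 genes and all lists were chosen with earlier results of these data known. Named are the 5 genes, up to 6 called genes of each pathway list with the largest diet difference, genes called for hydrogen, up to 2 genes not called, the 3 genes most alike in pattern to each of the 5, and Nr1d1. The rule did not say which genes not called to name, and these were chosen after their values were seen. Alternatives covered the filter, scaling, fit, array weights, replicate block, further probe sets and each array left out.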

Additional observations from a re-analysis of the deposited data

Results flagged for a closer look

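In 19 of 299 groups of 4 arrays, over 75 named genes, the highest or lowest array lay far from the other 3 (a gap above Dixon's 95% critical share of the group's range), which chance gives in about 1 in 20 groups. Among the 5 thyroid hormone genes this held once, for Dio1 in the control, CDAA group, where replicate 2 was at 7.06 and the others at 6.69 to 6.75.

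On the same array, Sult1e1 was at 8.89 (others 11.88 to 12.16), Rxra at 4.66 (others 4.52 to 4.54) and Ppif at 5.80 (others 5.16 to 5.26). Replicate 2 of the hydrogen, CDAA group had Sult1e1 at 6.81 (others 11.29 to 11.64), Slc7a5 at 5.25 (others 4.65 to 4.75) and Hdac3 at 7.38 (others 7.07 to 7.11). Replicate 3 of that group had Slc10a1 at 11.14 (others 11.75 to 11.83), Slco1a4 at 10.27 (others 10.73 to 10.75) and Iyd at 9.16 (others 9.24 to 9.25), and replicate 4 had Alb at 13.73 (others 13.72).

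Replicate 4 of the control, normal diet group, which lay between the diets, had Rxrg at 7.05 (others 7.46 to 7.53), Nr1d1 at 6.20 (others 6.81 to 6.90), Ppif at 5.65 (others 5.82 to 5.84) and Dstl1 at 7.75 (others 7.97 to 8.01). The remaining values were Acly at 9.92 on replicate 3 of that group (others 10.58 to 10.65), Crym at 5.26 on replicate 3 of the control, CDAA group (others 5.53 to 5.58), Gusb at 7.75 on replicate 2 (others 7.73) and Serpina3n at 11.77 on replicate 3 (others 11.61 to 11.63) of the hydrogen, normal diet group.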

How the results depend on the processing

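The fall of Thrb in control rats kept its direction and its side of the threshold in all alternatives run. The Thrb fall under hydrogen lost its call with no filter (-0.34), median centring (-0.32) and only the groups compared (-0.34), and spanned -0.44 to -0.22 with single arrays left out. For the Dio1 diet difference under hydrogen, quantile normalization again gave a call (-0.46), and leaving out single arrays gave -0.40 to -0.15. For Thra it gave a call at -0.27, the mean of the probe sets one at -0.20, and leaving out single arrays -0.25 to -0.078. Hydrogen differences on the CDAA diet changed sign for Ttr with quantile normalization again (0.002), for Dio1 with array weights (0.047), and for Thra with the second probe set (-0.053) or the mean of sets (-0.01). With single arrays left out, these ran from -0.11 to 0.14 for Dio1, from -0.038 to 0.13 for Thra and from -0.018 to 0.23 for Serpina7, and the interactions from -0.17 to 0.078 for Dio1 and from -0.11 to 0.062 for Thra. The causes were not tested.

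Calls for hydrogen on normal chow, 2 with all arrays, numbered 4 with median centring, 17 with only the groups compared, 5 with trended and robust eBayes and 46 with array weights. Those on the CDAA diet, 71, numbered 2 with only the groups compared, and the interaction, 1, gave 3 with array weights. Leaving out single arrays gave 0 to 11 calls on chow, 21 to 346 on the CDAA diet (346 without control, CDAA replicate 2) and 0 to 21 for the interaction.

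Groups share replicate numbers, but of 24 same-numbered pairs of arrays 9 correlated above 0.1 in their deviations from group means (lowest -0.13, highest 0.32). No 2 groups had all 4 pairs above 0.1, so the numbers were not taken to pair the rats. The 2 CDAA groups gave -0.08, 0.26, 0.32 and 0.19 for replicates 1 to 4, and the 2 normal-diet groups 0.16, -0.05, 0.12 and 0.13. A pairing within each diet can therefore not be excluded. With the replicate number as a block, the Thrb difference under hydrogen was -0.34 (adjusted p = 0.06, limma), and 1 probe set was called for hydrogen on chow and 0 for the interaction. No other call of the 5 genes changed.

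Added after seeing the data, repeated quantile normalization left 4 genes raised by T3 called higher in control rats, not 7, and turned that list's median under hydrogen to -0.0049 from 0.02. Without control, normal diet replicate 4, 2 secreted carriers were called higher under hydrogen, not 4.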
